A study of Mus musculus with 2 samples.

Results

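The genes described here are those of fibroblast growth factor (FGF) signalling: every symbol of the deposited tables that begins with Fgf, apart from the Fgfr1op names, together with Spry1 to Spry4, Spred1 to Spred3, Dusp6, Etv4, Etv5, Frs2, Kl and Klb. This rule found 42 of the 25791 listed genes. It uses names only, not measured values, but it was chosen with earlier results of these data known. Of the 42, 18 encode secreted ligands, 4 encode FGF homologous factors that stay inside the cell, and 5 encode receptors. The others encode binding proteins, co-receptors, an adaptor, feedback inhibitors and transcription factors that FGF signals induce.

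RNA was sequenced from epithelial cells of the mouse thymus, taken from fetuses of 15 dpc (days after conception) by a sort for EpCAM that left out cells with CD45 or PDGFRa. The humanCD3eTg library (n = 1) comes from mice of a C57BL/6J x CBA/J background that by the title carry a human CD3e transgene, and the B6J library (n = 1) from C57BL/6 mice with no transgene named. The study asked how the epithelium differs with and without developing thymocytes. As background, transgenic mice with many CD3E copies are T cell deficient, whereas the treatment labels give thymocytes as present in humanCD3eTg and absent in B6J, so the libraries are called by their titles and every ratio is humanCD3eTg over B6J. The sources used here do not give the number of embryos per library or the line and promoter of the transgene. Transgene, strain background, presence of thymocytes and library cannot be told apart, and with 1 library per group there is no test and no spread between mice.

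FGFs are secreted proteins that bind tyrosine kinase receptors together with heparan sulphate, and their signal passes through the adaptor FRS2 to the RAS and ERK kinases. ERK activity switches on Etv4, Etv5, Dusp6 and the Sprouty and Spred genes, of which Dusp6, Sprouty and Spred then dampen the same pathway. In the fetal thymus, FGF7 and FGF10 from the surrounding mesenchyme act on the epithelial form of FGFR2 and are known to drive growth of the epithelium.

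The values are FPKM, read fragments of a gene corrected for its length and for library size, so levels are per length and can be set beside each other across genes. From the steps between low values, about 15800000 fragments stood behind the humanCD3eTg library and about 20000000 behind B6J. For a gene whose counted length is 1 kb, 1 FPKM then rests on about 15.8 fragments in humanCD3eTg (95% Poisson interval 9.15 to 26.0) and 19.96 in B6J (12.2 to 30.9). Intervals given below are of this kind: they cover counting error only, not the spread between mice or sorts, and they rest on an approximate depth. In bulk RNA, fewer cells of a type and less RNA per cell cannot be told apart.

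Markers of the labelled cell type were present in both libraries, with none of 19 thymic epithelial genes at 0. Of the 19, 14 were lower and 5 higher in humanCD3eTg (median log2 ratio -0.13). Among all genes that average 1 FPKM or more, 55.4% were lower (median -0.05). Krt5, a basal keratin, stood at 955.5 FPKM in humanCD3eTg and 280.2 FPKM in B6J, while its usual partner Krt14 stood at 9.05 FPKM in humanCD3eTg and 22.9 FPKM in B6J. Ccl25, a cortical chemokine gene, stood at 631.6 FPKM in humanCD3eTg and 976.9 FPKM in B6J. Epcam stood at 231.4 FPKM in humanCD3eTg and 173.5 FPKM in B6J, and Foxn1, a transcription factor that thymic epithelium needs to mature, at 43.7 FPKM in humanCD3eTg and 91.1 FPKM in B6J. Other cell types differed between the libraries. The 18 thymocyte genes summed to 17.0 FPKM in humanCD3eTg and 205 FPKM in B6J, with all 14 used genes lower (used genes average 1 FPKM or more over the libraries). Of all 18, 5 were listed at 0 in humanCD3eTg against 1 in B6J. Cd3e itself stood at 1.08 FPKM in humanCD3eTg and 10.6 FPKM in B6J. All 15 used pan-haematopoietic genes (sums of 82.3 FPKM in humanCD3eTg and 233.2 FPKM in B6J, none at 0; Ptprc, which encodes CD45, at 0.358 FPKM in humanCD3eTg and 4.18 FPKM in B6J) and all 13 used endothelial genes (sums of 50.4 FPKM in humanCD3eTg and 103 FPKM in B6J, none at 0) were lower too. Only 8 of the 14 thymocyte, 6 of the 15 pan-haematopoietic and 7 of the 13 endothelial genes reached 1 FPKM in humanCD3eTg, and the others passed the filter through B6J, which fixes their direction. Of 13 used neural crest, glia and pigment genes 12 were higher (9 of the 13 reached 1 FPKM in B6J), with sums of 204.7 FPKM in humanCD3eTg and 40.7 FPKM in B6J, and 3 of all 16 were listed at 0 in humanCD3eTg against 2 in B6J. The 18 mesenchymal genes summed to 652 FPKM in humanCD3eTg and 420 FPKM in B6J, of which Vim, singled out after its values were seen, made 358.0 FPKM in humanCD3eTg and 153.7 FPKM in B6J, with 7 of 15 used genes higher, none at 0, and Pdgfra at 0.348 FPKM in humanCD3eTg and 0.676 FPKM in B6J. The part of these cells in the FGF results was not tested.

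No FGF pathway gene differed by 2-fold on the scale of FPKM + 1, on which low genes differ by less than in FPKM itself. Of the 42 genes, 21 averaged 1 FPKM or more over the libraries, and these 21 also reached 1 FPKM in each library. None of the 21 differed by 2-fold either way, beside 6.57% of the 13493 used genes. None was at least 2-fold higher, where 2.1% of used genes were, and none was at least 2-fold lower, where 4.47% were. At 1.5-fold, 1 of 21 was higher (5.95% of used genes) and 2 of 21 were lower (10.9%), which for so few genes is near the background. The median log2 ratio of the 21 was 0.07, beside -0.05 for all used genes. By direction alone 14 of 21 were higher and 7 lower, where 44.6% of used genes were higher. After quantile normalization 17 of 21 were higher, beside 52.5% of used genes, and after median centring 16 of 21, beside 50%. With the libraries rescaled on the total left without haemoglobin, ribosomal protein and mitochondrial genes, 13 of 21 were higher, beside 41.1%. For 16 of the 21 the log2 ratio was under 0.5 in size, and the 5 beyond it were Fgf13, Etv5 and Etv4 on the higher side and Fgf18 and Fgfr2 on the lower side.

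**Figure D1:**
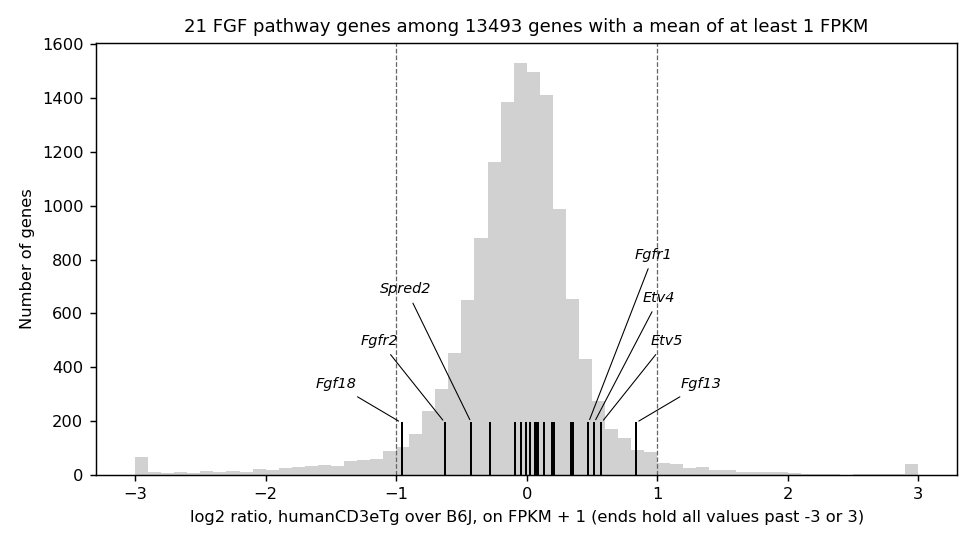
Histogram of log2 ratios of humanCD3eTg over B6J on FPKM + 1 for the 13493 genes that average 1 FPKM or more, with the 21 FGF pathway genes as black ticks and dashed lines at 2-fold. All 21 ticks lie between the dashed lines, from Fgf18 at -0.96 to Fgf13 at 0.83.

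The promoters of Dusp6, Spred1 and Etv5 are shown first. They were picked after their values were seen, as genes known to be induced by ERK signalling whose levels were higher in humanCD3eTg beyond counting error. Each runs 5′ to 3′ from 250 bases before to 50 bases after a transcript start, from RefSeq on build GRCm38.p6, which is later than the build of the deposited tables. Capitals mark CGGAAG or GGAAGT, core forms of the sequence that ETS factors such as ETV4 and ETV5 recognise, searched on both strands (so CTTCCG and ACTTCC as well). Sites of the pair can overlap. The Dusp6 promoter lies at chr10:99262981-99263280 on the plus strand, that of Spred1 at chr2:117120821-117121120 on the plus strand, and Etv5 has a start at chr16:22438319-22438618 and a start at chr16:22439521-22439820, each on the minus strand.
Dusp6: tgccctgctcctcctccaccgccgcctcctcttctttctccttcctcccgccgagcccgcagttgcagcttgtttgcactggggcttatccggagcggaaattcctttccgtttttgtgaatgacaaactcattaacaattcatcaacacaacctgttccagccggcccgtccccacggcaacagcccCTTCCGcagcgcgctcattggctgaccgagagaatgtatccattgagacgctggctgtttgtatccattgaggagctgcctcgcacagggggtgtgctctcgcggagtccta
Spred1: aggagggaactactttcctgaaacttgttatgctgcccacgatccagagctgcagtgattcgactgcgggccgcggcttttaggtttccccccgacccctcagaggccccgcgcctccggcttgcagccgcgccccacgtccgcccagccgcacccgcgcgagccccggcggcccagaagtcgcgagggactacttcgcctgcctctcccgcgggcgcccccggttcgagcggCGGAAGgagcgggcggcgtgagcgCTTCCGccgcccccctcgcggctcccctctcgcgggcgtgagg
Etv5, the first of these starts: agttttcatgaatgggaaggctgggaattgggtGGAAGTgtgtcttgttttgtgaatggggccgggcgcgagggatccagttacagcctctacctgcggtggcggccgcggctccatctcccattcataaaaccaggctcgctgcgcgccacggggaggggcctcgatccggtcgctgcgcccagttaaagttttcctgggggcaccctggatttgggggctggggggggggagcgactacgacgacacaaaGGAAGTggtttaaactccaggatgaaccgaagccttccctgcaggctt
Etv5, the other start: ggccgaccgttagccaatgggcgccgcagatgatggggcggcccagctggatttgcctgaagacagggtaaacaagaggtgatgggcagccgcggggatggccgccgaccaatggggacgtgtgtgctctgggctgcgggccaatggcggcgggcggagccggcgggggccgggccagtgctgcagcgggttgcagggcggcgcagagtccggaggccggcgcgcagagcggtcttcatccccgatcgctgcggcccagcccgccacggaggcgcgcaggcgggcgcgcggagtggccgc

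Dusp6 holds 1 such match, Spred1 holds 2, and Etv5 holds 2 at the first start and 0 at the other. A match is a description of these letters, not a binding site. The 32 FGF pathway genes with an entry have 40 entries, of which 11 (27.5%) held either motif, beside 32.5% of all 32851 promoters listed, so the matches do not set these genes apart. CGGAAG alone is found in 16.9% of the table's promoters and GGAAGT alone in 23.8%. The promoters of Fgfr2, Fgf18, Spry1, Spry2 and Spred3 held neither. Those of Spred2, which was lower in humanCD3eTg, and of Frs2 and Fgfrl1, which were near equal, held both motifs. Etv4 and Spry4 had no entry.

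Among the secreted ligands Fgf21 and Fgf18 were the only members that averaged 1 FPKM or more. Fgf21, a hormone-like FGF best known from liver and also reported in thymic stroma, stood at 12.4 FPKM in humanCD3eTg and 12.2 FPKM in B6J. Its FPKM ratio was 1.02, with a counting interval of 0.811 to 1.27, and a difference within that range was not detectable from these counts. Fgf21 held 62.5% of all secreted ligand FPKM in humanCD3eTg and 55.4% in B6J. Klb, the co-receptor that FGF21 needs to signal, was listed at 0 in both libraries. Such a value can be a failed estimate, so no absence of Klb is read from it.

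Fgf18, a ligand of the Fgf8 subfamily known from lung and skeletal development, stood at 2.43 FPKM in humanCD3eTg and 5.66 FPKM in B6J. It was 2.33-fold lower in FPKM (counting interval 1.54 to 3.60), from about 32 fragments in humanCD3eTg and about 94 in B6J. On FPKM + 1 its log2 ratio was -0.96, just short of 2-fold. Thymocyte, haematopoietic and endothelial markers were lower in the same library, by the sums given above. Of 19 thymic epithelial genes 14 were lower there too and 5 higher, where 55.4% of used genes were lower. The part of any of these cells in the level of Fgf18 was not tested.

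The other 16 ligands had means under 1 FPKM. Fgf9, which signals mainly from epithelia to mesenchyme, lay just under that limit at 0.948 FPKM in humanCD3eTg and 0.969 FPKM in B6J. Fgf16, of the same subfamily, stood at 1.09 FPKM in humanCD3eTg and 0.475 FPKM in B6J, or about 25 fragments in humanCD3eTg and 14 in B6J, with a ratio of 2.29 (counting interval 1.13 to 4.69). Fgf20, the remaining ligand of that subfamily, stood at 0.595 FPKM in humanCD3eTg and 0.118 FPKM in B6J, on about 8 fragments in humanCD3eTg and 2 in B6J (ratio 5.05, 1.01 to 48.8). Thus Fgf16 and Fgf20 were higher in humanCD3eTg and Fgf9 was near equal, all at low counts.

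Larger ratios were found for Fgf15 and Fgf8, which were close to the detection limit in a library each. Fgf15, the mouse counterpart of the gut hormone FGF19, stood at 0.0393 FPKM in humanCD3eTg and 0.685 FPKM in B6J, about 1 fragment in humanCD3eTg and 22 in B6J (17.4-fold lower, counting interval 2.82 to 720). Fgf8, an early patterning signal of the pharyngeal region, stood at 0.641 FPKM in humanCD3eTg and 0.0622 FPKM in B6J, about 8 fragments in humanCD3eTg and 1 in B6J (ratio 10.3, 1.353 to 448). Each of these ratios rests on about 1 fragment in a library, so its size is poorly fixed.

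The ligands known from thymic mesenchyme, and others of their subfamily, were at the low end. Fgf10 stood at 0.388 FPKM in humanCD3eTg and 0.250 FPKM in B6J (ratio 1.55, counting interval 0.837 to 3.08). Fgf7 was listed at 0 in humanCD3eTg and at 0.101 FPKM in B6J, and Fgf22 and Fgf3, of the same subfamily, were listed at 0 in humanCD3eTg and in B6J at 0.175 FPKM for Fgf22 and 0.101 FPKM for Fgf3. Fgf4, an early embryonic ligand, was likewise listed at 0 in humanCD3eTg and at 0.0353 FPKM in B6J. These 4 genes rested on about 2 to 5 fragments in B6J, so an absence in humanCD3eTg cannot be told from a low level at this depth.

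Fgf23, the phosphate hormone from bone, stood at 0.627 FPKM in humanCD3eTg and 0.341 FPKM in B6J (ratio 1.84, counting interval 0.80 to 4.37), and its co-receptor gene Kl at 0.388 FPKM in humanCD3eTg and 0.728 FPKM in B6J. Kl was 1.88-fold lower (1.21 to 2.98), on about 30 fragments in humanCD3eTg and 71 in B6J. Fgf1, Fgf5 and Fgf17 had between 0.0851 and 0.494 FPKM in humanCD3eTg and between 0.168 and 0.377 FPKM in B6J, with intervals that spanned a ratio of 1. Fgf2 and Fgf6 were listed at 0 in both libraries. A value of 0 in these tables can be a failed estimate, and Fgf2 overlaps Nudt6, so no absence is read from it.

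Of the FGF binding proteins, secreted carriers that release FGFs from heparan sulphate, Fgfbp1 stood at 5.02 FPKM in humanCD3eTg and 4.50 FPKM in B6J (ratio 1.12, counting interval 0.822 to 1.53). Fgfbp3 stood at 0.0813 FPKM in humanCD3eTg and 1.16 FPKM in B6J. This is about 2 fragments in humanCD3eTg against about 36 in B6J, a 14.3-fold lower level with a counting interval of 3.67 to 122. Fgfbp3 was left out of the counts above because its mean was 0.620 FPKM.

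**Figure D2:**
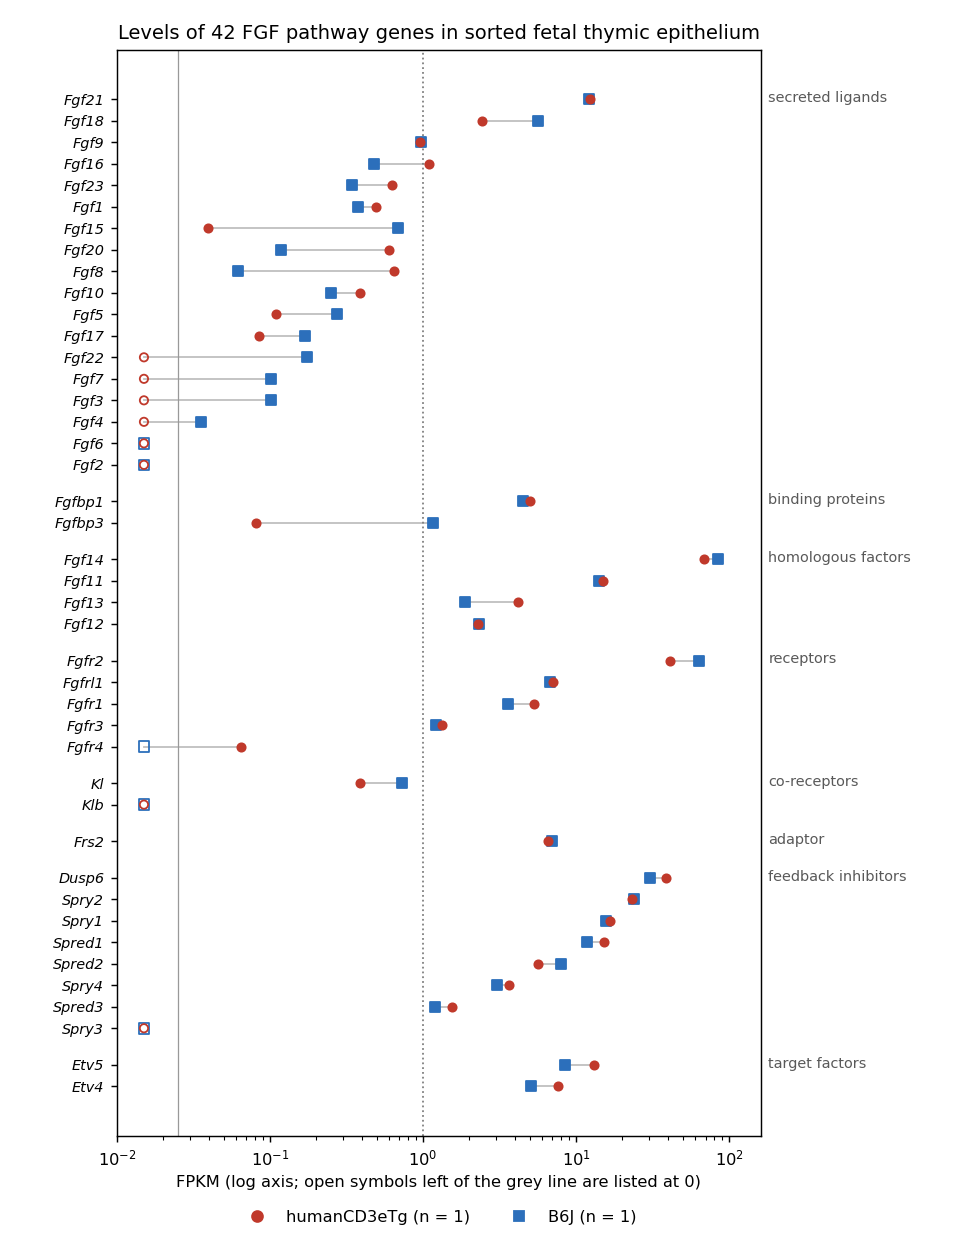
FPKM of the 42 genes on a log axis, grouped by role, with red circles for the humanCD3eTg library and blue squares for the B6J library; open symbols at the left are listed at 0 and the dotted line is 1 FPKM. Fgf14 and Fgfr2 stand highest in both libraries, and 16 of 18 secreted ligands have means under 1 FPKM.

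The gene with the highest level was Fgf14, an FGF homologous factor. These relatives of the FGFs are not secreted and are known in neurons as regulators of sodium channels. Fgf14 stood at 68.8 FPKM in humanCD3eTg and 83.8 FPKM in B6J, the highest level of all 42 genes in each library, which is rank 1352 of 25791 genes in humanCD3eTg and rank 1168 in B6J. It was 1.22-fold lower in humanCD3eTg (counting interval 1.17 to 1.27). The gene overlaps Itgbl1, listed below 1 FPKM in both libraries. Fgf11 stood at 14.9 FPKM in humanCD3eTg and 14.0 FPKM in B6J, and Fgf12 at 2.29 FPKM in humanCD3eTg and 2.30 FPKM in B6J. Fgf14 held 76.3% of the summed FPKM of the 4 homologous factors in humanCD3eTg and 82.2% in B6J. Together the 4 homologous factors summed to 90.2 FPKM in humanCD3eTg and 102 FPKM in B6J, beside 19.8 FPKM in humanCD3eTg and 22.0 FPKM in B6J for the 18 secreted ligands.

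Fgf13 was the homologous factor that differed most, at 4.14 FPKM in humanCD3eTg and 1.88 FPKM in B6J. Its FPKM ratio was 2.20 (counting interval 1.65 to 2.97) on about 133 fragments in humanCD3eTg and 76 in B6J, and its log2 ratio on FPKM + 1 was 0.83. Neural crest, glia and pigment genes were higher in the same library, with Dct, a melanin synthesis gene, at 55.5 FPKM in humanCD3eTg and 0.631 FPKM in B6J and Fabp7, a glial gene, at 36.5 FPKM in humanCD3eTg and 1.07 FPKM in B6J. Their part in the level of Fgf13 was not tested.

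Fgfr2 was the main FGF receptor gene in both libraries and was lower in humanCD3eTg. It stood at 40.8 FPKM in humanCD3eTg and 63.5 FPKM in B6J, 1.56-fold lower (counting interval 1.48 to 1.64) on about 2301 fragments in humanCD3eTg and 4515 in B6J. The deposited values are per gene, so its epithelial form, which binds FGF7 and FGF10, and its mesenchymal form were not separated. Fgfr1, in most tissues the main mesenchymal FGF receptor, went the other way, at 5.34 FPKM in humanCD3eTg and 3.57 FPKM in B6J (ratio 1.5, counting interval 1.28 to 1.75).

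The balance between these receptors therefore differed. The level of Fgfr2 was 7.64 times that of Fgfr1 in humanCD3eTg and 17.8 times in B6J, and Fgfr2 held 85.8% of the summed FPKM of Fgfr1 to Fgfr4 in humanCD3eTg and 93.0% in B6J. That sum was 47.5 FPKM in humanCD3eTg and 68.3 FPKM in B6J. Beside this, 7 of 15 used mesenchymal genes were higher and 8 lower, with a median log2 ratio of -0.05. At 1.5-fold, 5 were higher (5.95% of used genes) and 3 lower (10.9%). The median was 0.37 over the 10 genes that average 5 FPKM or more. Among the lower genes, Thy1 (2.97 FPKM in humanCD3eTg and 23.8 FPKM in B6J) is on the thymocyte list too. All 18 mesenchymal genes summed to 652 FPKM in humanCD3eTg and 420 FPKM in B6J, and without Vim to 294 FPKM in humanCD3eTg and 266 FPKM in B6J. Lox stood at 10.4 FPKM in humanCD3eTg and 1.85 FPKM in B6J, and Fbln2 at 11.1 FPKM in humanCD3eTg and 3.75 FPKM in B6J. Tcf21 stood at 0.548 FPKM in humanCD3eTg and 2.70 FPKM in B6J. Pdgfra, which the sort selects against, was lower in humanCD3eTg but had a mean under 1 FPKM. The part of mesenchymal genes in the balance was not tested.

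The remaining receptor genes were low or near equal. Fgfr3 stood at 1.33 FPKM in humanCD3eTg and 1.21 FPKM in B6J, and Fgfr4 at 0.0643 FPKM in humanCD3eTg and listed at 0 in B6J, with about 3 fragments in humanCD3eTg. Fgfrl1, a receptor without a kinase domain, stood at 7.03 FPKM in humanCD3eTg and 6.70 FPKM in B6J. Frs2, the adaptor that docks on the receptors, stood at 6.50 FPKM in humanCD3eTg and 6.96 FPKM in B6J. The counting intervals of Fgfr3, Fgfrl1 and Frs2 spanned a ratio of 1, and Frs2 turned higher, by 0.0038 on the log2 scale, after quantile normalization.

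**Figure D3:**
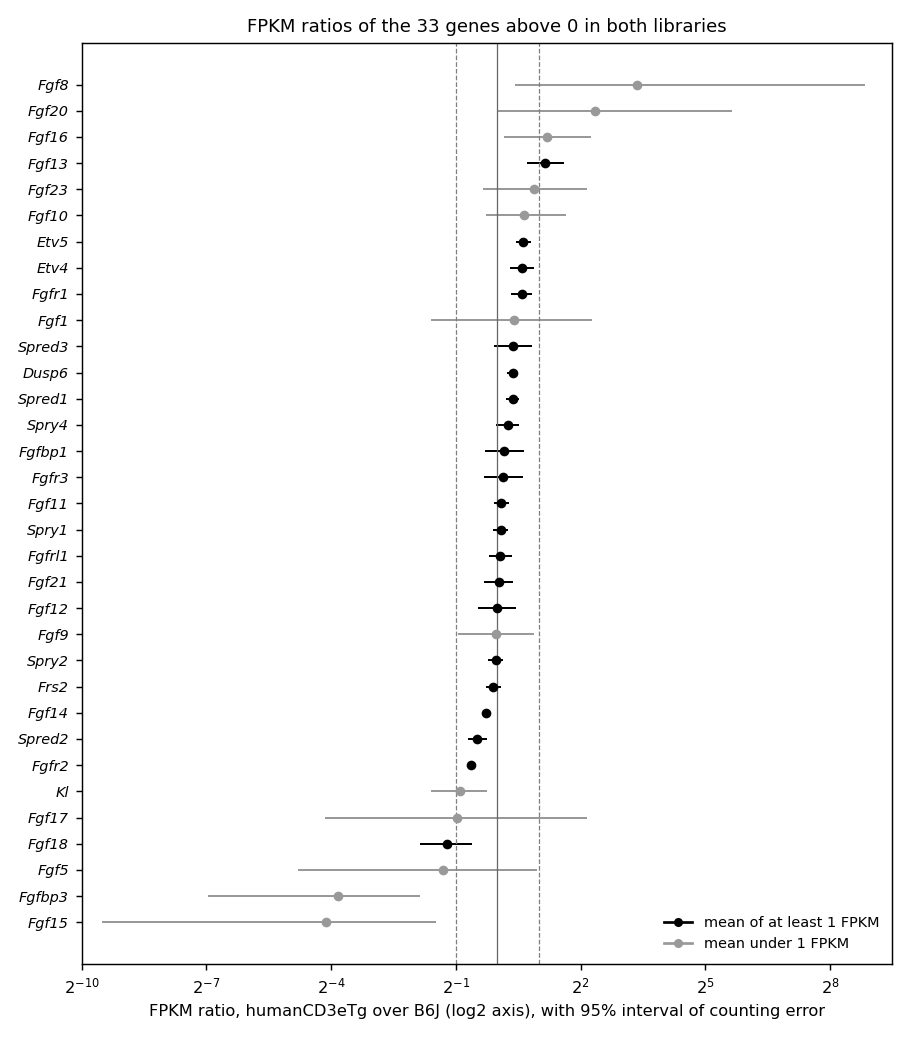
FPKM ratio of humanCD3eTg over B6J for the 33 genes above 0 in both libraries, on a log2 axis with 95% counting intervals, dashed lines at 2-fold, black for genes that average 1 FPKM or more and grey for the others. Etv5, Etv4, Fgfr1, Dusp6 and Spred1 lie above 1 with narrow intervals, Fgfr2, Spred2 and Fgf14 lie below 1, and the widest intervals belong to grey genes of few fragments.

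Of the feedback inhibitors and target factors that ERK signalling induces, Etv5, Etv4, Dusp6 and Spred1 were higher in humanCD3eTg beyond counting error, Spred2 was lower, and Spry1, Spry2, Spry4 and Spred3 had intervals that spanned a ratio of 1. Etv5, an ETS transcription factor, stood at 13.1 FPKM in humanCD3eTg and 8.47 FPKM in B6J (ratio 1.54, counting interval 1.39 to 1.72). Etv4, its close relative, stood at 7.66 FPKM in humanCD3eTg and 5.06 FPKM in B6J (ratio 1.51, 1.26 to 1.82). Dusp6, a phosphatase that switches off ERK, stood at 38.9 FPKM in humanCD3eTg and 30.2 FPKM in B6J (ratio 1.29, 1.2 to 1.39). These genes differed by more than counting error but by less than 2-fold, and no replicate shows how far they vary between mice. On FPKM + 1 none of the 9 used feedback inhibitors and target factors was 1.5-fold higher (5.95% of used genes) or lower (10.9%). Intervals were computed for the FGF genes only, so the share of all genes that differ beyond counting error is not known.

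The Spred genes, inhibitors of RAF activation by RAS, did not share a direction. Spred1 stood at 15.1 FPKM in humanCD3eTg and 11.8 FPKM in B6J (ratio 1.29, counting interval 1.17 to 1.42). Spred2 stood at 5.65 FPKM in humanCD3eTg and 7.92 FPKM in B6J, a ratio of 0.714 (0.619 to 0.823). Spred3 stood at 1.54 FPKM in humanCD3eTg and 1.19 FPKM in B6J, the same ratio of 1.29 as Spred1 but on fewer fragments, with an interval of 0.957 to 1.74, and it overlaps Ggn. Spred2 was thus the only lower member of the family.

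Of the Sprouty genes, which block signalling between the receptors and ERK, Spry1 and Spry2 were nearly level. Spry2 stood at 23.2 FPKM in humanCD3eTg and 23.9 FPKM in B6J, a log2 ratio of -0.05 that became 0.0020 after median centring and 0.0074 after quantile normalization. Spry1 stood at 16.6 FPKM in humanCD3eTg and 15.7 FPKM in B6J. Spry4 stood at 3.62 FPKM in humanCD3eTg and 3.05 FPKM in B6J (ratio 1.19), with a counting interval of 0.9998 to 1.41 that only just reached 1. Its log2 ratio was 0.19, and 0.33 after quantile normalization. Spry3 was listed at 0 in both. Among the 9 feedback inhibitors and target factors that averaged 1 FPKM or more, 7 were higher by any amount (44.6% of all used genes were) and the median log2 ratio was 0.21. After median centring (50% of used genes higher) or quantile normalization (52.5%) 8 of 9 were higher, with Spry2 then among them at the values given above. After rescaling 7 of 9 were higher, beside 41.1% of used genes.

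Other genes that ERK activity is known to induce were taken from a list of 22 that excludes the genes above. The list was chosen with earlier results of these data known, so its counts are a description only. By direction and median these genes were placed near the 9 feedback inhibitors and target factors, of which 0 were 1.5-fold higher. Of the 22, 18 were higher and 4 lower, where 44.6% of all used genes were higher, with a median log2 ratio of 0.19. Some of the 18 were near equal, the smallest log2 ratio among them being 0.010. After quantile normalization 16 of the 22 were higher and 6 lower, beside 52.5% of used genes higher. After rescaling 17 of the 22 were higher, beside 41.1%. None differed by 2-fold on FPKM + 1, and 6 were at least 1.5-fold higher (5.95% of used genes) and 1 lower (10.9%). The largest were Areg, an EGF receptor ligand, at 5.39 FPKM in humanCD3eTg and 2.36 FPKM in B6J, Etv1, the third PEA3 factor beside Etv4 and Etv5, at 2.37 FPKM in humanCD3eTg and 0.827 FPKM in B6J, Ccnd1, a G1 cyclin, at 6.39 FPKM in humanCD3eTg and 3.16 FPKM in B6J, and Plaur, the urokinase receptor, at 28.3 FPKM in humanCD3eTg and 16.004 FPKM in B6J. All 3 PEA3 factors stood higher in humanCD3eTg, but Etv1 was under 1 FPKM in B6J. It passed the filter through humanCD3eTg, which fixes its direction, and no counting interval was computed for it. These genes answer to many receptors besides those of FGFs, and the receptor behind them was not tested.

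**Figure D4:**
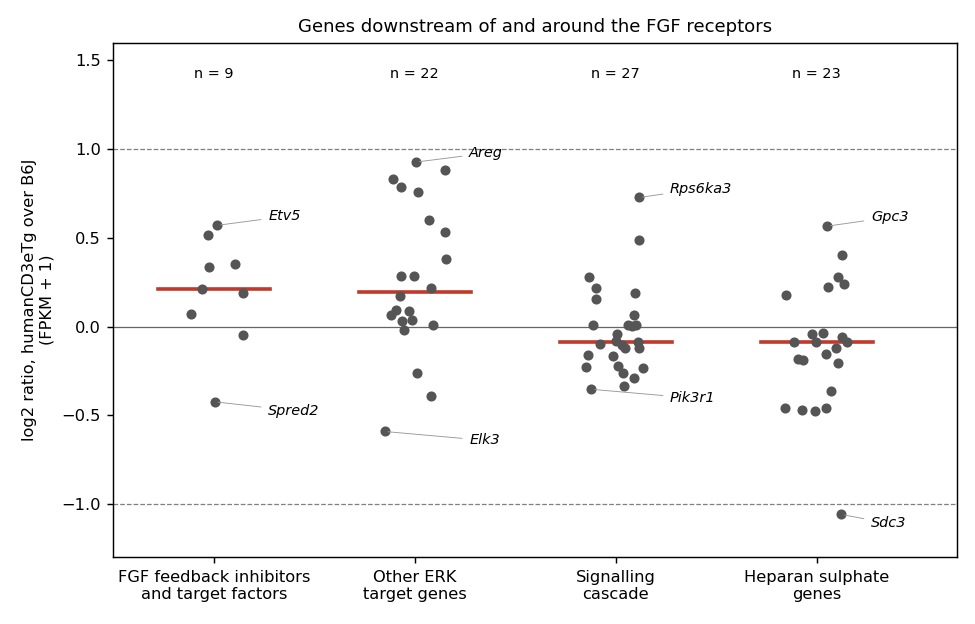
log2 ratios of humanCD3eTg over B6J on FPKM + 1 for 4 sets of genes that average 1 FPKM or more, a point per gene, a red line at each median, dashed lines at 2-fold and the extreme genes named. The medians of the feedback and target genes (0.21) and of other ERK targets (0.19) lie above 0, and those of the signalling cascade and the heparan sulphate genes (-0.09 each) lie just below it.

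The kinases and adaptors between receptor and nucleus were expressed throughout and differed little. The 27 measured members of the cascade list all had at least 1 FPKM in each library, with 11 higher, 16 lower, none by 2-fold and a median log2 ratio of -0.09. Of all used genes 44.6% were higher and 6.57% differed by 2-fold, with a median of -0.05. For so few genes the cascade counts are near this background. With the libraries rescaled on the total left without haemoglobin, ribosomal protein and mitochondrial genes, 7 were higher and 20 lower, beside 41.1% of used genes higher. Rps6ka3, a kinase that ERK activates, stood at 34.1 FPKM in humanCD3eTg and 20.2 FPKM in B6J. It was the only member past 1.5-fold, where 5.95% of used genes were at least 1.5-fold higher and 10.9% lower. Pik3r1, a regulatory subunit of PI3 kinase, stood at 9.01 FPKM in humanCD3eTg and 11.8 FPKM in B6J.

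Heparan sulphate carriers and enzymes, which hold FGFs at their receptors, were more often lower than higher, by a margin that depended on the scaling. Of 23 used members 6 were higher and 17 lower, with a median log2 ratio of -0.09, where 55.4% of all used genes were lower. After quantile normalization 11 were higher and 12 lower, where 52.5% of used genes were higher. Sdc3, a syndecan known from neurons and muscle, was the only member past 2-fold, at 8.89 FPKM in humanCD3eTg and 19.6 FPKM in B6J. Gpc1, a glypican, stood at 53.3 FPKM in humanCD3eTg and 74.1 FPKM in B6J, and Gpc3, a glypican of growing fetal tissues, at 27.1 FPKM in humanCD3eTg and 17.99 FPKM in B6J. The 2-fold difference of Sdc3 was not kept with a pseudocount of 5 or after quantile normalization.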

How the data were processed

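Per the labels' protocols, sorted cells were lysed in TRIzol and sequencing libraries were built from total RNA by the TruSeq method of Illumina. The authors deposited 1 FPKM value per gene symbol and library. Per the submitters' processing notes, TopHat2 2.0.8, Bowtie2 2.1.0 and Cufflinks 2.1.1 were used and the build was mm9; the role of each tool is not stated. The sources used here do not give annotation, filters or use of strand, so overlapping genes cannot be separated. Levels of isoforms were not analysed here.

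Log2 ratios of humanCD3eTg over B6J on FPKM + 1 were taken with Python 3.11.15, numpy 2.4.6, pandas 2.3.3 and scipy 1.17.1. Genes that average 1 FPKM or more were used, and FPKM of at most 0.001 is called listed at 0. No ratio is printed for such genes. With 1 library per group no test was run. The computation of log2 ratios and 2-fold calls was tried on simulated data. The depth estimate and the counting intervals were not.

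Depth is not in the tables. The FPKM worth of 1 fragment was fitted on low single-transcript genes with GENCODE M21 lengths (a later build) less 210 bases, in a search between 0.04 and 0.09 taken from earlier work on these data. It was 0.0632 FPKM over 1 kb in humanCD3eTg and 0.0501 in B6J. Of 683 genes in humanCD3eTg 59.7% lay within 0.1 of a whole number of fragments, and of 930 in B6J 57.4%, where an unfitted step would give 20%. The most frequent humanCD3eTg over B6J ratio among 2144 genes under 0.5 FPKM was 1.26, which is also the ratio of the fitted steps. Fragments of each gene use the median length of its coding transcripts, and ratio intervals are 95% exact (Clopper-Pearson) intervals on these estimated counts, rounded.

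Overlaps between genes and the promoter sequences come from RefSeq tables on GRCm38.p6. All FGF genes with at least 1 FPKM in either library are named with their values, and from each other list up to 4 genes with the largest log2 ratio, besides Cd3e, Ptprc, Pdgfra, Epcam and Foxn1. Some genes that this rule allows are not reported here. The members and lists were chosen with earlier results of these data known, and the motifs after the promoters had been searched.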

Additional observations from a re-analysis of the deposited data

How the results depend on the processing

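Among the FGF genes, with a pseudocount of 0.1, 1 gene was 2-fold higher (Fgf13) and 1 lower (Fgf18); a limit of 1.5-fold gave 1 higher and 2 lower, and a limit of 4-fold, a pseudocount of 5, quantile normalization, median centring, no filter, a minimum mean of 5 FPKM and rescaling on the total left without genes of haemoglobin, ribosomal proteins and mitochondria gave 0 each way. The median log2 ratio of the FGF genes moved by under 0.1 in all of these. For other ERK targets the count of 2-fold higher genes was 2 with a pseudocount of 0.1, 2 after quantile normalization and 6 at 1.5-fold, where 1 was lower. In the cascade 1 gene was higher at 1.5-fold. For heparan sulphate genes the count of 2-fold lower genes was 0 with a pseudocount of 5, after quantile normalization and at 4-fold.

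Signs turned for genes near 0: Fgf12 (0.042 after median centring, 0.13 after quantile normalization), Spry2 (0.0020 and 0.0074 in the same order), Frs2 (0.0038 after quantile normalization) and Fgf21 (-0.0068 after rescaling). The mesenchymal median was 0.37 over the 10 genes that average 5 FPKM or more, beside -0.05 in the main setting, and the median of all genes was 0.022 after quantile normalization. The cause was not tested. Of 139 recomputed gene values 116 moved by under 0.1, 17 by more and 6 changed sign. No paired analysis was possible because there is 1 library per group. The depth, which is an estimate, limits genes under 1 FPKM.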
